A study of Mus musculus with 27 samples.

Results

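The genes described here are 9 members of the prostaglandin and leukotriene pathway, taken by symbol from a count table of mouse cortex with 22340 rows: Ptgs1, Ptgs2, Ptges, Ptges2, Ptges3, Ptger4, Ptgds, Alox5ap and Alox12b. All 9 have a row, and all 9 were abundant enough to be tested among 18087 genes. The libraries came from the cortex of wild-type C57BL6 mice aged 7 to 8 weeks. The right middle cerebral artery was closed by a suture for 35 min, and tissue of the ipsilateral (occluded) or contralateral hemisphere was collected after 3, 6, 12 or 24 h of reperfusion. Sham animals were anesthetized and had their arteries exposed with no filament inserted. The 27 libraries form 9 groups of 3: sham, and each hemisphere at each of the 4 times. All groups share strain, age range and anesthesia; the labels give no hemisphere or time for sham, and do not say whether both hemispheres came from 1 animal.

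Prostaglandins and leukotrienes are short-lived lipid signals made from arachidonic acid, which phospholipases and lipid hydrolases free from membrane lipids. Cyclooxygenases turn it into prostaglandin H, which terminal synthases convert to prostaglandins E, D and others, each read by its own receptors. The lipoxygenase branch needs the helper protein encoded by Alox5ap to start leukotriene synthesis. In brain, Ptgs2 is a textbook gene of injury and strong neuronal activity, Ptgs1 is the steadily expressed cyclooxygenase, and Ptgds is abundant in the membranes that cover the cortex.

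The promoters of the 2 cyclooxygenase genes are shown because, in the main edgeR fit, Ptgs2 passed the tests of time given below and Ptgs1 did not. In some alternatives given below Ptgs1 passed as well. They are RefSeq windows of 300 bases in build GRCm38.p6 that begin 250 bases before the annotated start, and 8 of the 9 genes had such a window. The Ptgs2 window lies at chr1:150099781-150100080 and the Ptgs1 window at chr2:36230176-36230475, both on the plus strand. Capitals mark matches to the motifs searched, and a match is a description of letters only.
Ptgs2: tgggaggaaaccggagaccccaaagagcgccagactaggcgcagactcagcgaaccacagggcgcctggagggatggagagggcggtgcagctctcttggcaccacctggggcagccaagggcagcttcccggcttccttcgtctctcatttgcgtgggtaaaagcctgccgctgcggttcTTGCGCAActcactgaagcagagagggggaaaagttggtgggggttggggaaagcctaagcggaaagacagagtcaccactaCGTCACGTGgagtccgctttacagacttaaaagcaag
Ptgs1: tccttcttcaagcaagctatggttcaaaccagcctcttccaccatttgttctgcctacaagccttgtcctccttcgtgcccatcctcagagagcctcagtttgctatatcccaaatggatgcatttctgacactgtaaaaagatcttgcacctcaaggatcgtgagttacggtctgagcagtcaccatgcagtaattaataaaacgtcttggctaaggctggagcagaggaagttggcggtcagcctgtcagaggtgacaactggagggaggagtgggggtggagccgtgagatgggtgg
The Ptgs2 window holds a C/EBP match, TTGCGCAA, 69 bases before the start. It also holds CGTCA, an arm of the cAMP response element, at position 14 after the start, which runs into the E-box CACGTG at position 17. That E-box contains the hypoxia response core ACGTG. The Ptgs1 window holds none of the 7 motifs searched on both strands, and neither do those of Ptges, Ptger4 and Alox12b. The Ptges2 window, of a gene called in no comparison, also holds the E-box with the hypoxia response core. That of Ptges3 holds CGTCA and an NF-kappaB match, and that of Ptgds an AP-1 and an NF-kappaB match. The pair shown was thus chosen by results of these data, and motifs were not tested against the calls. Among 32851 windows of this length, TATAAA was in 13.6%, CGTCA in 20.8%, CACGTG in 7.15%, the AP-1 motif TGANTCA in 7.81%, the C/EBP motif TTGCNNAA in 10.8%, ACGTG in 19.6% and an NF-kappaB consensus in 8.46%.

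Library totals ran from 26.5 to 48.8 M counts, and the 2 mitochondrial ribosomal RNAs took 24.4% to 40.4% of them. Replicate 1 of contralateral cortex at 3 h and replicate 1 of ipsilateral cortex at 24 h stand apart from the rest on technical measures, so results that rest on them are given without them too. Markers of neurons, astrocytes, oligodendrocytes and microglia were detected in every group, and so were those of vessel cells, meningeal fibroblasts and blood cells. Choroid plexus markers, from a tissue outside the cortex, summed to 4.75 CPM in 1 library and 743 CPM in another. CPM are counts scaled to a common library size after TMM normalization. The tissue is bulk, so fewer cells of a type and less RNA per cell cannot be told apart.

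Between hemispheres Ptgs2 had the largest rise of the 9 genes at 6, 12 and 24 h: it did not pass at 3 h and was higher in ipsilateral than in contralateral cortex at 6, 12 and 24 h. At 24 h Ptgs1, Ptges and Ptger4 were higher as well, Ptges3 was higher at 12 h, and Alox12b was lower at 6 and 24 h. Ptges2, Ptgds and Alox5ap passed the test at no time. In counts, 0 of 9 passed at 3 h by edgeR (1, Alox12b, had an unadjusted p under 0.05, and DESeq2 called 0), where 0.232% of all genes were called higher and 0.0166% lower. At 6 h 1 was higher and 1 lower, against 5.85% and 2.14% of all genes. At 12 h 2 were higher and 0 lower by edgeR (0 lower also by an unadjusted p under 0.05 and by DESeq2), against 7.94% and 4.3%. At 24 h 4 were higher and 1 lower, against 9.74% and 9.36%. The median log2 fold change of the 9 was -0.03, 0.23, 0.24 and 0.28 at 3, 6, 12 and 24 h, beside 0.00, -0.02, -0.01 and 0.03 for all tested genes.

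**Figure D1:**
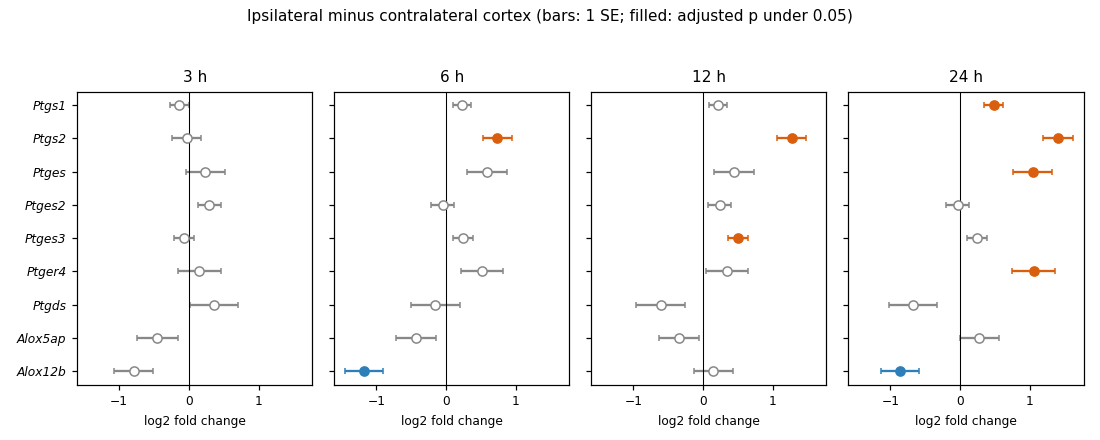
Log2 fold change of each of the 9 genes, ipsilateral minus contralateral cortex, in 1 panel per reperfusion time; bars are 1 SE and filled points have an adjusted p under 0.05 (orange higher, blue lower). Filled points number 0, 2, 2 and 5 at 3, 6, 12 and 24 h, and Ptgs2 lies farthest to the right from 6 h on.

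Ptgs2 encodes the inducible cyclooxygenase and lies on chromosome 1 from 150100031 to 150108227 (mm10, plus strand). In sham cortex it stood at 23.2, 19.1 and 21.5 CPM, and ipsilateral libraries at 3 h were in the same range, at 22, 17.7 and 22.9 CPM. Ipsilateral values were 38.1, 32 and 20 CPM at 6 h, 36.4, 29.5 and 46.4 CPM at 12 h and 45.1, 53.5 and 62.7 CPM at 24 h. At 12 and 24 h every ipsilateral library lay above every contralateral and every sham library, while at 6 h the lowest ipsilateral library fell among the contralateral ones.

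Contralateral Ptgs2 was 26.8, 16.4 and 20.7 CPM at 3 h, 22.6, 14 and 17.4 CPM at 6 h, 14, 15.9 and 16.5 CPM at 12 h and 23, 19.4 and 18.3 CPM at 24 h. None of these groups passed the test against sham. Against contralateral cortex Ptgs2 rose 1.67-fold at 6 h (log2 fold change 0.74 ± 0.21 (SE), edgeR adjusted p = 0.0288), 2.42-fold at 12 h (log2 fold change 1.27 ± 0.21 (SE), edgeR adjusted p = 0.000241) and 2.65-fold at 24 h (log2 fold change 1.41 ± 0.21 (SE), edgeR adjusted p = 6.44e-05). The effect differed between the 4 times (edgeR adjusted p = 0.0265), which held for 1.34% of all genes, and it was larger at 24 h than at 3 h by 1.44 ± 0.30 (SE) on the log2 scale (edgeR adjusted p = 0.014), which held for 3.32%. Of the 9 genes Ptgs2 alone passed either of these tests of time in the main edgeR fit. Ptgs1 passed 24 h minus 3 h by DESeq2 (adjusted p = 0.0341) and by edgeR with a filter of 1 CPM in 3 libraries (adjusted p = 0.0487). It also passed by edgeR without contralateral replicate 2 at 3 h (adjusted p = 0.0289) or contralateral replicate 1 at 24 h (adjusted p = 0.0498). Without contralateral replicate 3 at 24 h, Alox12b passed the test over all 4 times (edgeR adjusted p = 0.0411).

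The 12 and 24 h calls of Ptgs2 held in all 14 alternatives, and the 24 h minus 3 h difference in all 32. The 6 h call rested on single libraries: the adjusted p was 0.15 without contralateral replicate 2, 0.104 without contralateral replicate 3, 0.179 without ipsilateral replicate 1, 0.124 without ipsilateral replicate 2 and 0.17 with only the compared groups fitted. The test over all 4 times was lost without any 1 of 6 libraries at 3 or 24 h (highest adjusted p 0.0815), namely contralateral replicates 1 and 3 and ipsilateral replicates 1, 2 and 3 at 3 h and contralateral replicate 2 at 24 h. Without both libraries that stand apart its adjusted p was 0.0572. Summed neuron markers moved the other way from Ptgs2, from 4963 to 5551 CPM in ipsilateral libraries at 3 h to between 3811 and 4269 CPM at 24 h, against 5763 to 6114 CPM in contralateral libraries at 24 h. Of the 10 neuron markers 7 were called lower at 24 h and none was at 0 in any group; their part in the rise of Ptgs2 was not tested. Over 27 libraries Ptgs2 and the neuron sum had r = -0.81 and rho = -0.62 on log2 values (permutation p = 1e-05, the smallest that 100000 permutations can give, and 0.00062, adjusted 0.0009 and 0.0142 over 90 relations of the 9 genes with 10 marker lists). Without the 2 libraries farthest from the median marker sum r was -0.75, and for deviations from group means it was 0.17. The permutations shuffled libraries across groups, so their p-values hold differences between groups as well as within them.

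**Figure D2:**
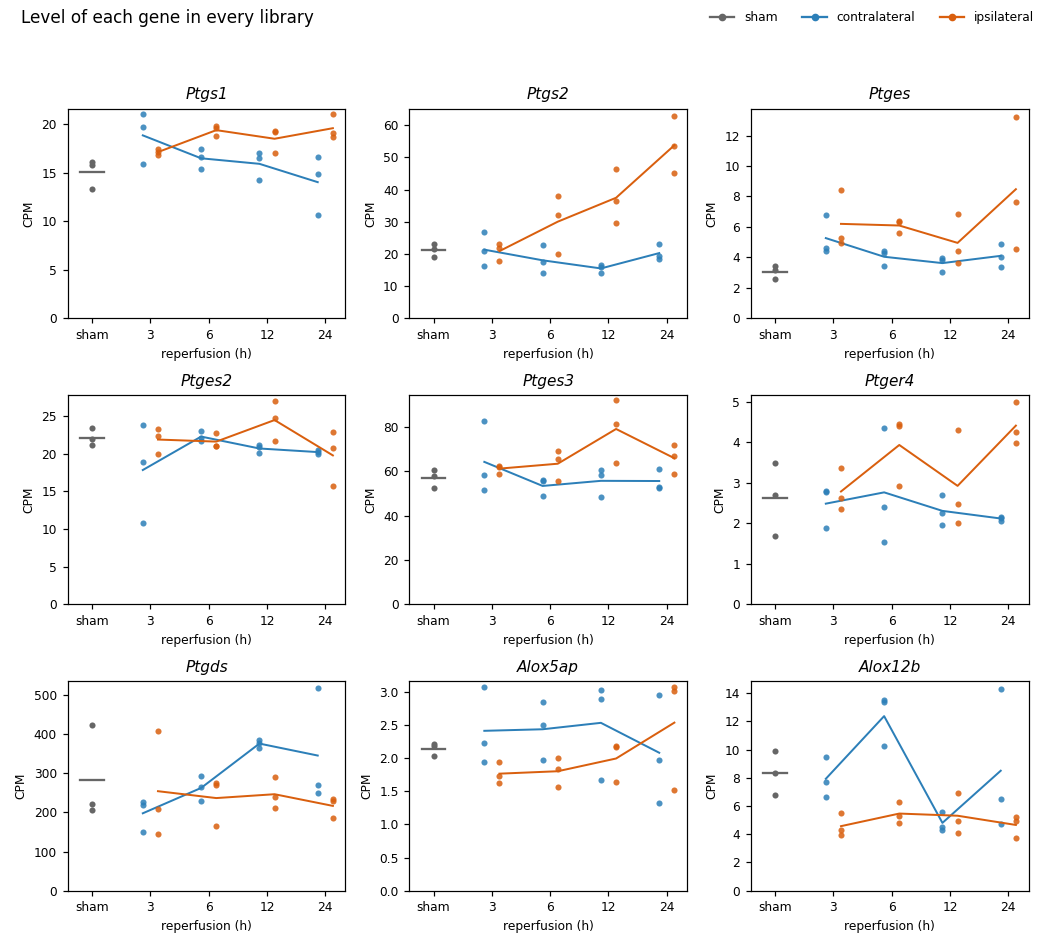
CPM of the 9 genes in every library, by reperfusion time; points are libraries and lines join group means (grey sham, blue contralateral, orange ipsilateral; every axis starts at 0). Ptgs2 separates the hemispheres from 12 h on, Ptges and Alox12b each have 1 library far from its group at 24 h, and Ptgds varies widely within groups.

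Ptgs1, the constitutive cyclooxygenase (chromosome 2, 36230426 to 36252272, plus strand), moved little. Its ipsilateral values at 24 h were 19, 21.1 and 18.6 CPM, against 16.6, 14.8 and 10.6 CPM in contralateral and 13.4, 16.1 and 15.7 CPM in sham cortex. All 3 of these ipsilateral libraries lay above the contralateral ones at 24 h and above the sham ones, but not above all contralateral ones at 3 h. Contralateral means were 18.8, 16.5, 15.9 and 14.0 CPM at 3, 6, 12 and 24 h, and ipsilateral means 17.1, 19.4, 18.5 and 19.6 CPM. Ptgs1 was 1.4-fold higher than in contralateral cortex (log2 fold change 0.48 ± 0.13 (SE), edgeR adjusted p = 0.0115) and 1.3-fold higher than in sham (log2 fold change 0.38 ± 0.13 (SE), edgeR adjusted p = 0.0404). The first call was lost without contralateral replicate 3, which had the lowest Ptgs1 of all libraries (log2 fold change 0.31, adjusted p = 0.0991), without ipsilateral replicate 2 (adjusted p = 0.0598) and with only the compared groups fitted (adjusted p = 0.0722). The call against sham was lost without any 1 of the 6 libraries (highest adjusted p 0.187).

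Per kilobase of exon, the 2 cyclooxygenase transcripts were at similar levels in sham cortex, with a Ptgs2 to Ptgs1 ratio of 1.21 ± 0.24 (SD, n = 3). In ipsilateral cortex the ratio was 1.03 ± 0.14 after 3 h, 1.32 ± 0.44 after 6 h, 1.72 ± 0.38 after 12 h and 2.34 ± 0.45 after 24 h (SD, n = 3 each). Contralateral means lay between 0.834 at 12 h and 1.25 at 24 h. At 24 h the ipsilateral libraries ran from 2.01 to 2.86 and the contralateral ones from 1.11 to 1.46, so the hemispheres did not overlap.

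**Figure D3:**
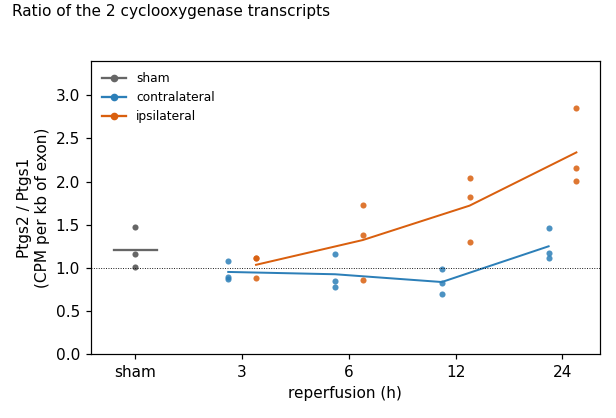
Ratio of Ptgs2 to Ptgs1, each as CPM per kilobase of exon, in every library by reperfusion time; lines join group means and the dotted line marks equal levels. Ipsilateral means go from 1.03 at 3 h to 2.34 at 24 h, and the sham mean is 1.21.

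Prostaglandin E synthases are encoded by 3 of the 9 genes. Ptges, the microsomal enzyme that is usually induced together with Ptgs2 (chromosome 2, 30889471 to 30929863, minus strand), had a mean of 3.06 ± 0.436 CPM (SD, n = 3) in sham cortex. Its ipsilateral values were 5.25, 4.91 and 8.44 CPM at 3 h, 6.3, 6.37 and 5.61 CPM at 6 h, 3.6, 4.39 and 6.86 CPM at 12 h and 13.2, 7.65 and 4.55 CPM at 24 h. At every time all 3 ipsilateral libraries exceeded all 3 sham libraries, whose values were 3.2, 2.57 and 3.41 CPM. The same sham libraries serve at each time, so these comparisons are not independent.

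Contralateral Ptges was also above every sham library at 3 h, at 4.43, 4.61 and 6.75 CPM, and stood at 4.88, 4.05 and 3.37 CPM at 24 h. Contralateral means were 5.26, 4.04, 3.62 and 4.10 CPM at 3, 6, 12 and 24 h, each above the sham mean of 3.06 CPM. The 24 h groups of the 2 hemispheres overlapped. Against sham, Ptges rose 1.99-fold at 6 h (log2 fold change 0.99 ± 0.29 (SE), edgeR adjusted p = 0.0362) and 2.76-fold at 24 h (log2 fold change 1.47 ± 0.29 (SE), edgeR adjusted p = 0.000675), and at 3 h it had log2 fold change 1.02 ± 0.29 (SE), edgeR adjusted p = 0.142. Against contralateral cortex it rose 2.06-fold at 24 h (log2 fold change 1.04 ± 0.28 (SE), edgeR adjusted p = 0.0103).

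The 24 h call of Ptges against sham held in all 14 alternatives. The call against contralateral cortex did not: without ipsilateral replicate 1, the library at 13.2 CPM, the log2 fold change was 0.56 (adjusted p = 0.165), and without contralateral replicate 3 the adjusted p was 0.0509. Without both libraries that stand apart it was 0.127, and with only the compared groups fitted 0.0791. The 6 h call against sham was lost without sham replicate 1, 2 or 3 or ipsilateral replicate 1 or 2 (adjusted p from 0.0718 to 0.161). That library, ipsilateral replicate 1 at 24 h, also had the highest mitochondrial ribosomal RNA share (40.4%) and the highest sums of neutrophil (18.3 CPM), monocyte and macrophage (143 CPM) and endothelial markers (356 CPM). At 24 h 1 of 6 tested neutrophil markers, 3 of 9 monocyte markers and 3 of 10 endothelial markers were called higher in ipsilateral cortex, and 2 endothelial markers lower. No marker of these lists was at 0 in any group, and their part in the Ptges values was not tested. Over 27 libraries Ptges had r = 0.54 and rho = 0.15 with the neutrophil sum (permutation p = 0.00614 and 0.454, adjusted 0.0464 and 0.812), and r fell to 0.09 without the 2 farthest libraries, so the relation rests on those. With the endothelial sum r was 0.53 and rho 0.37 (permutation p = 0.00534 and 0.0591, adjusted 0.0464 and 0.284), and r was 0.38 without the 2 farthest libraries. With the monocyte and macrophage sum r was 0.40 and rho 0.19 (permutation p = 0.0388 and 0.342, adjusted 0.184 and 0.783), and r was 0.09 without the 2 farthest. For deviations from group means over all 27 libraries r was 0.80 with neutrophil, 0.82 with monocyte and macrophage and 0.70 with endothelial sums. These deviations include ipsilateral replicate 1 at 24 h and were not recomputed without it.

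Ptges2, the membrane-associated enzyme (chromosome 2, 32395896 to 32405772, plus strand), passed the test in no comparison. Its group means ran from 17.8 ± 6.6 CPM in contralateral cortex at 3 h to 24.5 ± 2.68 CPM in ipsilateral cortex at 12 h (SD, n = 3 each). The low mean came from contralateral replicate 1 at 3 h, with 10.8 CPM where the other libraries of that group had 18.9 and 23.9 CPM. Its log2 fold changes between hemispheres were 0.29, -0.04, 0.24 and -0.03 at 3, 6, 12 and 24 h, with SE of 0.17 each. Ptges2 had r = -0.62 and rho = -0.46 with the summed astrocyte markers over 27 libraries (permutation p = 0.00035 and 0.0182, adjusted 0.00648 and 0.144), and r = -0.40 without the 2 farthest libraries.

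Ptges3 encodes the cytosolic synthase, which is also a co-chaperone of Hsp90, and it was the most abundant of the 3 per kilobase, at 25.7 CPM per kb in sham against 4.38 for Ptges2 and 0.78 for Ptges. The gene lies on chromosome 10 from 128058954 to 128077272 (plus strand). At 12 h it had 92.3, 81.4 and 63.7 CPM in ipsilateral and 48.3, 58.5 and 60.4 CPM in contralateral cortex, with no overlap between them. Ptges3 rose 1.42-fold against contralateral cortex (log2 fold change 0.51 ± 0.15 (SE), edgeR adjusted p = 0.021) and 1.39-fold against sham (log2 fold change 0.47 ± 0.15 (SE), edgeR adjusted p = 0.0351), and at 24 h the difference between hemispheres was 0.24 ± 0.15 (SE), which did not pass. The 12 h call between hemispheres was lost without contralateral replicate 1 (adjusted p = 0.128) or ipsilateral replicate 1 (adjusted p = 0.161), and that against sham without sham replicate 1, 2 or 3 or ipsilateral replicate 1 or 2 (adjusted p from 0.0639 to 0.212). A pseudogene, Ptges3-ps on chromosome 6, could share reads with it and was not analysed here.

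Ptger4 encodes EP4, the prostaglandin E receptor that raises cAMP, and it was the scarcest of the 9 transcripts per kilobase (0.40 CPM per kb in sham). It lies on chromosome 15 from 5206661 to 5244187 (minus strand). Its values at 24 h were 5, 3.99 and 4.25 CPM in ipsilateral, 2.17, 2.06 and 2.14 CPM in contralateral and 1.69, 2.71 and 3.5 CPM in sham cortex. The ipsilateral libraries lay above all others of these 3 groups. Against contralateral cortex Ptger4 rose 2.08-fold (log2 fold change 1.06 ± 0.31 (SE), edgeR adjusted p = 0.0157).

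Against sham the 24 h difference of Ptger4 was 0.75 ± 0.30 (SE) on the log2 scale and did not pass (edgeR adjusted p = 0.0752); with replicate number as a block it did (adjusted p = 0.0471). At 3, 6 and 12 h the hemispheres overlapped and no test passed. The 24 h call between hemispheres was lost without contralateral replicate 2 (adjusted p = 0.053) or ipsilateral replicate 1 (adjusted p = 0.0568). Ptger4 overlaps Ttc33 on the opposite strand, and the strand setting of the counting is not given in the sources used here, so reads of the overlap cannot be told apart. Ttc33 had a log2 fold change of -0.29 ± 0.12 (SE), edgeR adjusted p = 0.0956 between hemispheres at 24 h, opposite in sign.

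Ptgds, the lipocalin-type prostaglandin D synthase (chromosome 2, 25466709 to 25470046, minus strand), was by far the most abundant of the 9, at 172 CPM per kb in sham. It passed the test in no comparison, and its spread within groups was wide: 423, 206 and 223 CPM in sham, 517, 249 and 270 CPM in contralateral and 233, 230 and 187 CPM in ipsilateral cortex at 24 h. At 12 h the contralateral libraries had 377, 385 and 365 CPM and the ipsilateral ones 211, 290 and 238 CPM. All ipsilateral libraries lay below all contralateral ones at 12 and 24 h, and the groups overlapped at 3 and 6 h.

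The log2 fold change of Ptgds between hemispheres was -0.61 ± 0.35 (SE) at 12 h (edgeR adjusted p = 0.285) and -0.67 ± 0.35 at 24 h (edgeR adjusted p = 0.188). Its 12 h difference passed when only the libraries of those groups were fitted (log2 fold change -0.60, adjusted p = 0.00218). Ptgds varied with the meningeal and perivascular fibroblast markers, whose 10 genes summed to between 94.1 and 168 CPM. Over 27 libraries Pearson's r was 0.68 and Spearman's rho 0.63 on log2 values (permutation p = 0.00012 and 0.00063, adjusted 0.0036 and 0.0142 over the 90 relations). Without the 2 farthest libraries r was 0.72, and for deviations from group means it was 0.76. Ptgds followed the monocyte and macrophage markers about as closely, with r = 0.63 and rho = 0.71 (permutation p = 0.00036 and 5e-05, adjusted 0.00648 and 0.0045), r = 0.80 without the 2 farthest libraries and r = 0.74 for deviations from group means. No fibroblast marker was called at 12 or 24 h between hemispheres, and of 9 tested monocyte and macrophage markers 0 were called at 12 h and 3 were higher at 24 h. The part of either list in the Ptgds differences was not tested.

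**Figure D4:**
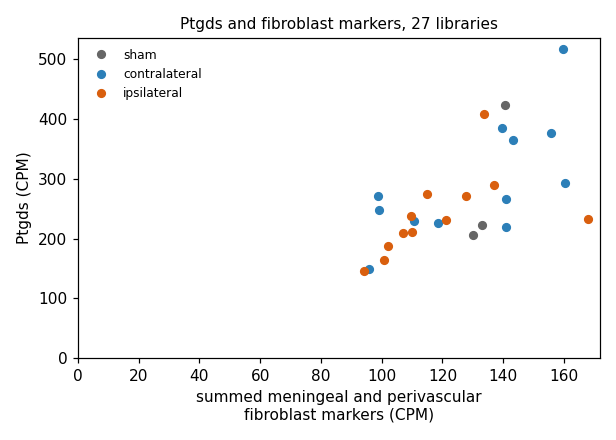
Ptgds against the summed level of 10 meningeal and perivascular fibroblast markers, both in CPM, 1 point per library (grey sham, blue contralateral, orange ipsilateral; both axes start at 0). Libraries with higher sums tend to have more Ptgds in all 3 colours, with r = 0.68 on log2 values over 27 libraries.

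On the leukotriene side, Alox5ap, which encodes the protein that presents arachidonic acid to 5-lipoxygenase (chromosome 5, 149264767 to 149288153, plus strand), passed no test. Its group means ran from 1.77 ± 0.165 CPM in ipsilateral cortex at 3 h to 2.54 ± 0.88 CPM at 24 h (SD, n = 3 each), and sham had 2.15 ± 0.095 CPM. At 24 h the ipsilateral values 3.08, 3.01 and 1.52 CPM overlapped the contralateral values 1.97, 2.95 and 1.32 CPM. Counts per library were 56 to 131.

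Alox5ap varied with the 10 markers of microglia, the resident immune cells of the brain. Over 27 libraries r was 0.67 and rho 0.67 on log2 values (permutation p = 6e-05 and 0.0003, adjusted 0.0027 and 0.0135 over the 90 relations), r was 0.54 without the 2 farthest libraries and 0.74 for deviations from group means. The library with the lowest Alox5ap, contralateral replicate 3 at 24 h with 1.32 CPM, also had the lowest microglia sum, 119 CPM. Of the microglia markers 1 was called higher and 3 lower in ipsilateral cortex at 24 h, and none was at 0.

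Alox12b encodes a 12R-lipoxygenase best known from the skin barrier (chromosome 11, 69156989 to 69169792, plus strand), and it was the only one of the 9 genes called lower. Ipsilateral values were 4.29, 3.94 and 5.49 CPM at 3 h, 6.3, 5.27 and 4.83 CPM at 6 h, 6.9, 4.93 and 4.11 CPM at 12 h and 3.76, 4.97 and 5.25 CPM at 24 h, with 9.91, 6.8 and 8.37 CPM in sham. Ipsilateral libraries lay below all sham libraries at 3, 6 and 24 h. Contralateral libraries had 6.62, 7.71 and 9.47 CPM at 3 h, 13.5, 10.2 and 13.4 CPM at 6 h, 4.54, 4.31 and 5.57 CPM at 12 h and 6.47, 4.71 and 14.3 CPM at 24 h, the group with the widest spread.

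Contralateral libraries of Alox12b were all above sham at 6 h and all below it at 12 h, and neither difference passed (edgeR adjusted p = 1 and 0.365). Between hemispheres Alox12b was lower by 1.18 ± 0.27 (SE) on the log2 scale at 6 h (edgeR adjusted p = 0.00705), a call that held in all 14 alternatives. The 6 h means were 5.47 CPM in ipsilateral and 12.4 CPM in contralateral cortex, beside 8.36 CPM in sham. Against sham the ipsilateral differences at 3, 6 and 12 h did not pass, except with only the compared groups fitted. That fit gave log2 fold changes of -0.86, -0.61 and -0.63 (edgeR adjusted p = 0.0203, 0.0229 and 0.031). The contralateral difference from sham at 12 h passed in that setting too (log2 fold change -0.80, edgeR adjusted p = 0.0299). Between hemispheres at 24 h Alox12b was lower by 0.86 ± 0.27 (edgeR adjusted p = 0.0275), but the groups overlapped and the value rested on contralateral replicate 3 at 14.3 CPM: without it the log2 fold change was -0.27 (adjusted p = 0.455). The 24 h call was also lost without ipsilateral replicate 1 (adjusted p = 0.11) or 2 (adjusted p = 0.0512), without both libraries that stand apart (adjusted p = 0.113) and with only the compared groups fitted (adjusted p = 0.177). Against sham Alox12b fell by 0.84 ± 0.28 (SE) at 24 h (edgeR adjusted p = 0.0288), which was lost without sham replicate 1 or 3 or ipsilateral replicate 1 or 2 (adjusted p from 0.0527 to 0.128) and without both libraries that stand apart (adjusted p = 0.116). No gene of the annotation overlaps Alox12b.

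Of the 90 relations with marker lists, 13 had an adjusted p under 0.05 for r, 8 for rho and 7 for both. The permutations ignored groups, so these counts include relations that hold between groups and not within them. The neuron sum took part in 6 of the 13. Beside Ptgs2, it had r = -0.56 with Ptgs1, -0.62 with Ptger4, -0.54 with Ptges, -0.51 with Ptges3 and 0.55 with Alox12b (permutation p = 0.00239, 0.0007, 0.00394, 0.00618 and 0.00314, adjusted 0.0307, 0.0105, 0.0394, 0.0463 and 0.0353). In the same order rho was -0.61, -0.62, -0.45, -0.53 and 0.61 (permutation p = 0.00101, 0.00079, 0.0193, 0.0056 and 0.00121, adjusted 0.0151, 0.0142, 0.144, 0.056 and 0.0156), and r without the 2 farthest libraries was -0.49, -0.52, -0.26, -0.63 and 0.51. For deviations from group means r was -0.18, -0.23, 0.08, -0.03 and 0.24. Ptges3 also had r = -0.50 and rho = -0.51 with pericyte and smooth muscle markers (permutation p = 0.0072 each, adjusted 0.0498 and 0.0648) and r = -0.47 and rho = -0.57 with oligodendrocyte markers (permutation p = 0.0141 and 0.00195, adjusted 0.0908 and 0.0219). Without the 2 farthest libraries these r were -0.40 and -0.52. The part of these cell types in the differences of the 6 genes was not tested.

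The comparisons with sham share the ipsilateral libraries with those between hemispheres, and all of them share the 3 sham libraries, so they are not independent. Against sham, 0 of 9 were called at 3 h by edgeR (2, Ptges and Alox12b, had an unadjusted p under 0.05, and DESeq2 called 1, Ptges), where 0.227% of all genes were higher and 0.0166% lower. At 6 h 1 was higher (Ptges; 5.03% of all genes) and 0 lower (1.09%; by an unadjusted p under 0.05 4 genes passed in either direction, and DESeq2 called Ptges alone). At 12 h Ptgs2 and Ptges3 were higher, Ptgs2 by 1.76-fold (log2 fold change 0.82 ± 0.21 (SE), edgeR adjusted p = 0.0122), against 6.58% of all genes higher and 3.72% lower. At 24 h Ptgs1, Ptgs2 and Ptges were higher and Alox12b lower, Ptgs2 by 2.53-fold (log2 fold change 1.34 ± 0.21 (SE), edgeR adjusted p = 8.48e-05), against 11.3% and 10.9%. The 12 h call of Ptgs2 was lost without sham replicate 2 (adjusted p = 0.0605) or ipsilateral replicate 3 (adjusted p = 0.0896), and its 24 h call held in all 14 alternatives.

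In contralateral cortex against sham, edgeR called 0 of the 9 genes at each time, where it called 0.0111%, 0.0332%, 0.238% and 0.111% of all genes in either direction at 3, 6, 12 and 24 h. By an unadjusted p under 0.05, 2 genes passed at 3 h (Ptgs1, Ptges), 1 at 6 h (Alox12b), 2 at 12 h (Ptgs2, Alox12b) and 0 at 24 h, and DESeq2 called 0 at each time. With only the compared groups fitted, Alox12b was called lower at 12 h (edgeR adjusted p = 0.0299). Contralateral Ptges at 3 h had log2 fold change 0.78 ± 0.29 (SE), edgeR adjusted p = 0.501 against sham, with all 3 libraries above all sham libraries.

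The rest of the pathway was followed through 60 listed genes, of which 58 have a row and 53 were tested. Between hemispheres 0 were called at 3 h by edgeR (4 by an unadjusted p under 0.05, and 1 by DESeq2), 2 higher and 2 lower at 6 h, 0 higher and 6 lower at 12 h, and 4 higher and 8 lower at 24 h. The background shares are those given for the 9 genes. Against sham the counts were 0 at 3 h (8 by an unadjusted p under 0.05, and 1 by DESeq2), 4 higher and 2 lower at 6 h, 2 and 4 at 12 h, and 5 and 11 at 24 h. Against sham at 24 h the 5 were Pla2g4a, Ptgir, Slco2a1, Cysltr2 and Alox12. Contralateral cortex had 0 calls against sham at each time (2, 8, 5 and 6 by an unadjusted p under 0.05, and 0 by DESeq2). Summed neuron markers at 24 h were 3995 ± 242 CPM in ipsilateral and 5938 ± 176 CPM in contralateral cortex (SD, n = 3 each). Their part in the lower calls of these pathway genes was not tested.

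In the list of arachidonic acid release, which also holds genes that make endocannabinoids, such as Daglb, 15 genes were tested. Pla2g4a, the cytosolic phospholipase that feeds the cyclooxygenases, had 6.12 ± 3.24 CPM in ipsilateral and 1.75 ± 0.624 CPM in contralateral cortex at 24 h (SD, n = 3 each). It rose at 24 h, with a log2 fold change of 1.79 ± 0.32 (SE), edgeR adjusted p = 0.000303, and the call held in all 14 alternatives. At 24 h 3 genes of this list were lower. Faah, which breaks down anandamide, fell to 53.5 ± 3.19 CPM against 90 ± 7.01 CPM at 24 h, with a log2 fold change of -0.75 ± 0.11 (SE), edgeR adjusted p = 2.81e-05, and it also fell at 6 and 12 h by 0.58 and 0.60 on the log2 scale.

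Abhd12, a lipid hydrolase, fell at 12 h and at 24 h (a log2 fold change of -0.46 ± 0.09 (SE), edgeR adjusted p = 0.000872). Daglb, which makes the endocannabinoid arachidonoylglycerol, also fell at 12 h and at 24 h (a log2 fold change of -0.34 ± 0.11 (SE), edgeR adjusted p = 0.032). Every ipsilateral library of Faah, Abhd12 and Daglb lay below every contralateral one at the times of their calls. At 12 h the Abhd12 call was lost without ipsilateral replicate 1 (adjusted p = 0.0709), and the Daglb call without contralateral or ipsilateral replicate 1 (highest adjusted p 0.0922). The Daglb call at 24 h was lost without contralateral replicate 1 or 2 or ipsilateral replicate 2 or 3 (highest adjusted p 0.143), and with only the compared groups fitted (adjusted p = 0.0788). Pla2g4f at 6 h and Pla2g10 at 24 h were called higher on few counts, 31 against 2 and 30 against 4 over 3 libraries each, so no fold is given. Both were named after their values were seen.

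Of the 6 other terminal synthases, 2 were lower at 24 h: Cbr1, a carbonyl reductase, with a log2 fold change of -0.75 ± 0.18 (SE), edgeR adjusted p = 0.00473, and Prxl2b, a prostamide and prostaglandin F synthase, with a log2 fold change of -0.54 ± 0.15 (SE), edgeR adjusted p = 0.0106. The Prxl2b call was lost without contralateral replicate 1 or ipsilateral replicate 3 (highest adjusted p 0.0563). Hpgds (hematopoietic prostaglandin D synthase), Tbxas1 (thromboxane synthase) and Ptgis (prostacyclin synthase) did not pass. Of 8 other prostanoid receptors, Ptgir, the prostacyclin receptor, was higher at 24 h, with 107 counts over the 3 ipsilateral libraries, 18 over the contralateral and 4 over the sham libraries (edgeR adjusted p = 0.0114 between hemispheres). That call was lost without contralateral replicate 1 or 2 or ipsilateral replicate 1 (highest adjusted p 0.0701).

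Slco2a1, the transporter that clears prostaglandins from outside the cell, was the only one of 5 transport and breakdown genes called. It had 4.11 ± 0.731 CPM in ipsilateral, 1.39 ± 0.686 CPM in contralateral and 1.23 ± 0.225 CPM in sham cortex at 24 h, a rise between hemispheres of a log2 fold change of 1.57 ± 0.31 (SE), edgeR adjusted p = 0.00083 that held in all 14 alternatives. Slco2a1 is also known from vessel endothelium, of whose 10 markers 3 were higher and 2 lower at 24 h, and their part in its rise was not tested.

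Between hemispheres the leukotriene enzymes that were called, Mgst3, Ltc4s and Lta4h, were lower. Of all genes 4.3% were called lower at 12 h and 9.36% at 24 h, and the calls of Ltc4s and Lta4h were lost in several alternatives. Mgst3, a microsomal glutathione transferase that can make leukotriene C, was 59 ± 6.73 CPM in contralateral and 28.2 ± 1.23 CPM in ipsilateral cortex at 24 h, with a log2 fold change of -1.07 ± 0.12 (SE), edgeR adjusted p = 1.35e-06. Its fall differed between times (edgeR adjusted p = 0.00671), from -0.08 at 3 h to -1.07 at 24 h on the log2 scale, in all 32 alternatives. Ltc4s, the dedicated leukotriene C synthase, fell at 12 h (a log2 fold change of -1.33 ± 0.36 (SE), edgeR adjusted p = 0.0144) on 38 against 83 counts, and Lta4h, which makes leukotriene B, fell at 24 h (a log2 fold change of -0.33 ± 0.12 (SE), edgeR adjusted p = 0.0446).

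The Ltc4s call was lost without contralateral or ipsilateral replicate 1 at 12 h (highest adjusted p 0.0883), and the Lta4h call without contralateral replicate 1 or 2 or ipsilateral replicate 2 or 3 at 24 h (highest adjusted p 0.229). With only the compared groups fitted both were lost as well (adjusted p = 0.0502 for Ltc4s and 0.15 for Lta4h), and the Lta4h call was also lost with no filter (adjusted p = 0.0503) and with the filter of 1 CPM in 3 libraries (adjusted p = 0.0596). Alox5, the 5-lipoxygenase itself, had 1.78 ± 0.619 CPM in ipsilateral and 1.48 ± 0.491 CPM in contralateral cortex at 24 h and did not pass. The 5 leukotriene receptors did not pass between hemispheres. Among 7 other lipoxygenases and epoxide hydrolases, Ephx1, the microsomal epoxide hydrolase, fell at 6, 12 and 24 h by 0.83, 0.74 and 0.70 on the log2 scale, in all alternatives. Ephx3 was higher at 6 h on 101 against 25 counts (a log2 fold change of 1.97 ± 0.60 (SE), edgeR adjusted p = 0.0388), a call lost without contralateral replicate 1, 2 or 3 or ipsilateral replicate 2 or 3.

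**Figure D5:**
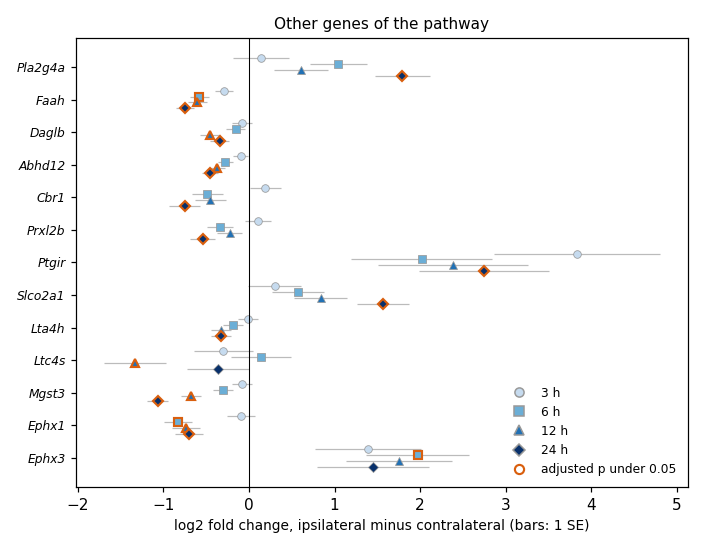
Log2 fold change, ipsilateral minus contralateral cortex, of 13 other genes of the pathway that passed the test at 1 or more times; symbols and shades give the reperfusion time, bars are 1 SE and orange rims mark an adjusted p under 0.05. Pla2g4a, Ptgir and Slco2a1 lie to the right and Faah, Mgst3 and Ephx1 to the left.

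The genes whose log2 levels followed a member most closely over the 27 libraries are given by Pearson's r, as a description. For Ptgs2 these were Mdm2 (0.89), Txnrd1 (0.89), Lats1 (0.88), Nup98 (0.88) and 9430008C03Rik (0.88). For Ptges they were Ikbke (0.86), Cd93 (0.86), Fam107b (0.85), Thbd (0.84) and Tubb6 (0.84). For Ptgds they were Islr (0.84), Fmod (0.83), Slc6a13 (0.82), Itih2 (0.79) and Olfml2a (0.79), and Slc6a13 is also on the fibroblast list. For Alox12b they were Fam65a (0.80), Rhou (0.80), Ccbe1, Dagla and Tmed9 (0.78 each). For Ptger4 the closest was Gm15666 (0.80) and for Alox5ap Adam9 (0.75). The libraries share their groups, so these values hold differences between groups as well as within them.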

How the data were processed

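Raw read counts per gene were used as deposited, 1 whole number per gene and library, in 22340 rows and 27 libraries. The authors made these counts, per the submitters' processing notes, with STAR 2.5.0a, mm10 and featureCounts 1.4.3-p1; edgeR is named with no version, and its role, the annotation and the strand setting are not stated in the labels. Ribosomal RNA had been depleted before library construction, per the labels' protocols, and totals were 26.5 to 48.8 M counts, so counting error matters most for genes with under 100 counts.

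Genes were filtered with filterByExpr (minimum count 10), scaled by TMM and fitted in 1 edgeR 4.0.16 quasi-likelihood model (R 4.3.3) of all 27 libraries with 1 mean per group. Adjusted p is Benjamini-Hochberg over 18087 genes, with a threshold of 0.05; SE comes from the log2 fold change and its F statistic, and levels are CPM. The common biological coefficient of variation was 0.175. Group labels came from sample titles. The script was tested on simulated data before use. Gene models for positions and exon lengths are GENCODE M21, and promoters are RefSeq. Marker correlations used log2 CPM and 100000 permutations of all 27 libraries, with no regard to group or replicate number. Alternatives were DESeq2 1.42.0, its size factors in edgeR, no filter, a filter of 1 CPM in 3 libraries, abundant RNAs left out, only the compared groups, a replicate block, each library left out, and 2 libraries left out together. The marker correlations and their checks were added after the data were seen.

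The labels tie each set of replicates to a distinct surgery day, so replicate numbers pair libraries across groups. Deviations from group means correlated with a mean r of 0.0475 over 108 pairs of same-numbered libraries and -0.0237 over 216 pairs of differently numbered ones. Nothing in the labels ties both hemispheres to 1 animal.

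The 9 genes, the pathway and marker lists and the tests were chosen with earlier results of these data known. Named pathway genes are those with an adjusted p under 0.05 between hemispheres at 1 or more times, up to 4 per list by smallest p; genes named outside that rule are said to be so or are given for their role. Pla2g4b, Pla2g2e and Ly6g were not analysed here, and Pla2g2d, Pla2g2f, Dpep1, Dpep2 and Alox15 did not pass the filter. Prxl2b is the row Fam213b, matched through RefSeq synonyms.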

Additional observations from a re-analysis of the deposited data

Results flagged for a closer look

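In the main edgeR fit the difference between hemispheres changed over the 4 reperfusion times for 1 of the 9 genes, Ptgs2. Its edgeR adjusted p for a differing effect was 0.0265, and its effect at 24 h exceeded that at 3 h by 1.44 on the log2 scale, with the hemispheres overlapping at 3 h and apart at 12 and 24 h. Among the other genes of the pathway, Mgst3 alone passed the test over the 4 times (edgeR adjusted p = 0.00671), in the opposite direction. Among pathway genes called between hemispheres, Mgst3, Pla2g4a and Cbr1 passed 24 h minus 3 h, which held for 3.32% of all genes. Their differences on the log2 scale were -0.99, 1.65 and -0.95 (edgeR adjusted p = 0.00332, 0.0435 and 0.042). The calls of Mgst3, Pla2g4a and Cbr1 held in 32, 18 and 21 of 32 alternatives.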

How the results depend on the processing

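No result changed direction once called: of 2389 values of 148 single-gene results under the alternatives, 2281 kept their direction and side of the threshold, 88 no longer passed, 20 newly passed and 0 reversed, while 69 of 1544 uncalled values changed sign. The replicate block changed 1 call, that of Ptger4 against sham at 24 h (adjusted p = 0.0471), and no other. Between hemispheres, leaving out 1 library gave 1 to 2 calls among the 9 genes at 6 h (2 with all), 1 to 2 at 12 h (2 with all) and 2 to 5 at 24 h (5 with all). With only the compared groups fitted there were 2 calls at 24 h, and without the 2 libraries that stand apart 3. Against sham, calls at 3 h were 0, but 2 with only the compared groups, 1 without the 2 libraries that stand apart and 1 by DESeq2. At 6 h they were 1, 3 with only the compared groups and 0 to 2 with 1 library left out. At 12 h they were 2, 4 with only the compared groups and 0 to 1 with 1 library left out, and at 24 h 4, and 2 to 3 with 1 library left out. Contralateral against sham at 12 h had 0 calls, and 1, Alox12b, with only the compared groups. The effect differed between times for 1 gene, for 0 without the 2 libraries that stand apart and for 0 to 2 with 1 library left out; 24 h minus 3 h had 1 call, 2 with the filter of 1 CPM, 2 by DESeq2 and 1 to 2 with 1 library left out. In each case the cause was not tested, except that fewer libraries leave fewer degrees of freedom. Depth limits Alox5ap and Ptger4, with 50 to 212 counts per library, and the pathway genes with under 100 counts per group. Replicates number 3 per group, and the edgeR p-values measure the spread between libraries within groups. Animal and surgery day are not told apart in that spread, and the main fit pairs no libraries.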
